A study of Sus scrofa with 35 samples.

Results

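The effect of heat on whole blood was described in Creole (CR) pigs, a local breed of the Caribbean, by setting the 6 pigs labelled as heat stressed (HS) against the 5 pigs labelled as thermoneutral (TN). These 11 pigs were chosen by their labels, out of 35 pigs of 3 breeds, and all were castrated growing males. TN pigs were kept at 24 °C. The labels give 30 °C for HS pigs whereas the protocol text gives 32 °C for 5 d, and by the methods of the study some HS pigs may have had 1 day less, which the labels do not tell apart, so the groups are called by their names only. Blood was taken at slaughter into tubes that fix the RNA, and 1 custom porcine array with probes of 60 bases was hybridised per pig. The methods of the study state that TN pigs were slaughtered before the temperature was raised, so day of slaughter and temperature cannot be told apart. By the same methods, each breed was made up of blocks of littermates, and each pen was slaughtered at 1 temperature, so pens differ between the groups too. Pen, sire and dam are not in the labels and were not used here. The p-values treat pigs as independent, although some shared a litter or a pen. They measure the spread between pigs, each with 1 array. The other 24 pigs, Large White (LW) and their F1 cross with CR, helped to estimate the spread and served for 1 comparison between breeds.

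Pigs hardly sweat and lose heat mainly by breathing faster and by sending blood to the skin, while feed intake and muscle activity go down. Inside cells, heat unfolds proteins. The heat shock factor HSF1 then switches on chaperones such as HSP70, HSP90 and the small heat shock proteins, which refold or protect them. Whole blood mixes white cells of every kind with platelets and young red cells that still carry RNA, and each value below is an average over them.

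The 11 CR arrays were alike in the share of probes above background but differed in brightness. The 75th percentile of intensity ran from 144.7 in HS pig 4 and 146.0 in TN pig 2 to 328.8 in TN pig 1. The part of brightness in the differences between pigs was not tested. The share of probes well above background was 59.2% to 67.3%, and 0 probe spots were saturated. Its lowest values were in HS pig 4 (59.2%) and TN pig 2 (59.8%). It averaged 64.4% ± 2.94 (SD, n = 6) in HS pigs and 65.1% ± 3.01 (n = 5) in TN pigs (exact permutation test, two-sided, p = 0.641, adjusted p = 0.909 over 5 array measures). Values are log2 intensities after quantile normalization. Over all probes, arrays of 2 TN pigs had Pearson correlations of 0.955 to 0.986, arrays of 2 HS pigs 0.945 to 0.989, and arrays of a TN and an HS pig 0.943 to 0.987.

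The heat effect in CR blood was small against the variation between pigs. No gene of 11023 passed an adjusted p of 0.05 with limma (0 genes, 0%), and the smallest adjusted p was 0.446. At an unadjusted p under 0.05, 681 genes (6.18%) were higher and 435 genes (3.95%) were lower in HS pigs. Of 39072 probes, 0 passed (0%), with 1854 probes (4.75%) higher and 1612 probes (4.13%) lower at an unadjusted p under 0.05. The median absolute difference between the group means was 0.13 log2 units and its 95th percentile 0.49, against a median SE of 0.15. The 95% interval of a typical gene thus reached 0.30 log2 units on each side of its estimate. The direction was slightly uneven, with the HS mean higher in 6198 genes (56.2%), lower in 4825 (43.8%), and a median difference over all genes of 0.03. The 6 HS pigs all lay above the 5 TN pigs in 45 genes (0.408%) and all below them in 7 genes (0.0635%). Among probes, the HS mean was higher in 56.1% and lower in 43.9%, the pigs did not overlap in 0.417% (higher) and 0.0435% (lower), and 0.338% differed by 2-fold or more.

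**Figure D1:**
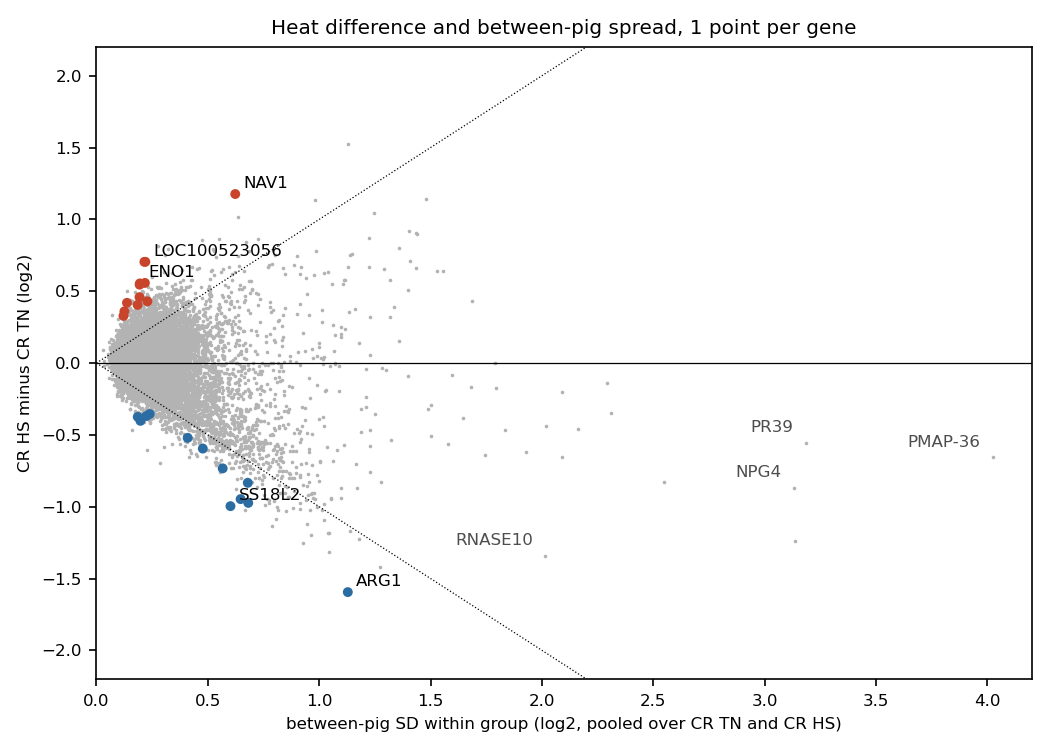
Difference between the mean log2 values of HS (n = 6) and TN (n = 5) CR pigs for each of 11023 genes, against the SD between pigs of the same group. Coloured points mark the 12 genes with the smallest p in each direction (red higher, blue lower in HS pigs), dotted lines mark a difference of 1 SD, and all but 1864 genes lie between these lines.

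The result depended on individual pigs. HS pig 1 carried the lowest weight (0.238) when limma was run with array weights, which count an array less the more it departs from its group. With these weights, 416 genes passed (176 higher and 240 lower in HS pigs, smallest adjusted p 0.048), whereas 0 probes did (smallest adjusted p 0.0745). When HS pig 1 was left out, 1413 genes were higher and 1060 lower at an unadjusted p under 0.05, and 0 genes passed the adjusted threshold (smallest adjusted p 0.0877). When TN pig 2 was left out, these counts were 412 and 73. The higher count was 372 without HS pig 3, 404 without HS pig 5 and 447 without TN pig 4. The lower count was 189 without HS pig 2, 108 without HS pig 3, 671 without HS pig 4, 160 without HS pig 5, 832 without TN pig 1 and 197 without TN pig 4. With slide as a block, the counts were 488 and 212.

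Pigs of the same group differed by a median SD of 0.22 log2 units per gene in TN and 0.25 in HS. The SD was higher among HS pigs in 6763 genes (61.4%). The HS group also had 174 genes with an SD over 1 log2 unit, against 86 in the TN group. Pooled over both groups, the median SD was 0.249, and the median gene differed between temperatures by 0.53 of its own SD. The difference was over 1 SD in 1864 genes (16.9%) and over 2 SD in 130 genes.

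LOC100523056, a gene known by its locus name only, was measured at 14.23, 13.70, 14.08, 13.87 and 14.24 in TN pigs 1 to 5, and at 14.388 to 15.001 in HS pigs, with a median of 14.75. No HS pig overlapped a TN pig. The difference was 0.70 ± 0.16 (log2, SE), or 1.63-fold, and it was positive on each of the 4 slides that held both groups (limma, adjusted p = 0.446). A probe that the files leave without a gene name, and which is almost the same as the probe of LOC100523056, was higher in HS pigs by 0.61 ± 0.15 (limma, adjusted p = 0.557 over all probes). Both are shown because they read largely the same stretch of transcript. Capitals mark a run of 35 bases that the 2 probes have in common.
LOC100523056 probe: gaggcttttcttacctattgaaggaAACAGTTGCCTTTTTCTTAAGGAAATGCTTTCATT
probe without gene name: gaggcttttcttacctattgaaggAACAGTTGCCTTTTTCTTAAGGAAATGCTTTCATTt

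TESK2, a kinase that acts on the actin-severing protein cofilin, had TN values of 5.54, 5.40, 5.45, 5.66 and 5.66 and HS values of 5.74 to 6.34 (median 5.89). PTGS1, the cyclooxygenase that makes the precursor of prostaglandins and thromboxane, had TN values of 5.37, 5.06, 5.68, 5.66 and 5.54 and HS values of 5.88 to 6.32 (median 5.94). In neither gene did the groups overlap. TESK2 was higher in HS pigs by 0.40 ± 0.09 and PTGS1 by 0.56 ± 0.13 (limma, adjusted p = 0.446 for each), and the PTGS1 probe was above background in 4 of the 5 TN pigs. ADPRH, which removes ADP-ribose from arginine residues, was higher by 0.43 ± 0.10 with all 7 of its probes in this direction, and LOC539209 was higher by 0.46 ± 0.11. In these 2 genes the lowest HS pig lay within the TN range.

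ENO1, the glycolytic enzyme enolase, was measured at 12.20, 12.49, 12.59, 12.55 and 12.51 in the TN pigs and at 12.63 to 13.26 in the HS pigs (median 13.03). All HS pigs were above all TN pigs, and TN pig 1 was the lowest animal. The difference was 0.55 ± 0.14, or 1.47-fold (limma, adjusted p = 0.48). TLR2, the receptor of innate immune cells for bacterial lipoproteins, had TN values of 8.43, 8.55, 8.41, 8.44 and 8.74 and HS values of 8.78 to 9.33 (median 9.10). The groups were separated by a narrow gap only, and the difference was 0.55 ± 0.15 (limma, adjusted p = 0.488).

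Among genes without overlap that were higher in HS pigs, the widest gaps between group means were in COL18A1, CTSZ, LOC100523056, Mobkl2c and CSF1R. COL18A1, a basement membrane collagen, was higher in HS pigs by 0.82 ± 0.25. CTSZ, a lysosomal cysteine protease, had TN values of 9.27, 8.80, 9.13, 9.18 and 9.32 and HS values of 9.55 to 10.64 (median 9.88), a difference of 0.79 ± 0.23 or 1.73-fold (limma, adjusted p = 0.488). CSF1R, the receptor through which macrophage colony-stimulating factor sustains monocytes, had TN values of 6.81, 6.20, 6.44, 6.54 and 6.55 and HS values of 6.85 to 7.55 (median 7.04), a difference of 0.60 ± 0.19. For CSF1R the highest TN pig nearly reached the lowest HS pig. Mobkl2c, named in the files as a MOB kinase activator, was higher by 0.70 ± 0.19. RENBP, an enzyme that converts N-acetylglucosamine and binds renin, was higher by 0.42 ± 0.11. SLC9A8, a sodium/proton exchanger above background in 4 of the 5 TN pigs, was higher by 0.36 ± 0.10. All of these had the same sign on each of the 4 slides. Others of the 45 genes without overlap were ACTB (0.48 ± 0.14), ARPC1B (0.48 ± 0.12, 5 of its 7 probes in this direction) and DBNL (0.50 ± 0.14) of the actin cytoskeleton. These last 3 were singled out after their values had been seen.

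NAV1, a microtubule-binding protein, had the largest mean difference among the 12 genes with the smallest p-values that were higher in HS pigs. Its TN values were 7.56, 7.33, 7.86, 7.94 and 7.80, and its HS values ran from 7.88 to 10.36 with a median of 8.75. HS pig 1, at 10.36, stood far above the other HS pigs, and the lowest HS pig fell inside the TN range. The difference was 1.18 ± 0.29, or 2.26-fold (limma, adjusted p = 0.48), and 0.98 with array weights. ADNP2, a homeobox zinc finger protein, was higher by 0.33 ± 0.09, with HS pig 1 again apart, this time as the lowest HS pig at 5.32. ADNP2 was above background in 4 of the 5 TN pigs and 5 of the 6 HS pigs.

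**Figure D2:**
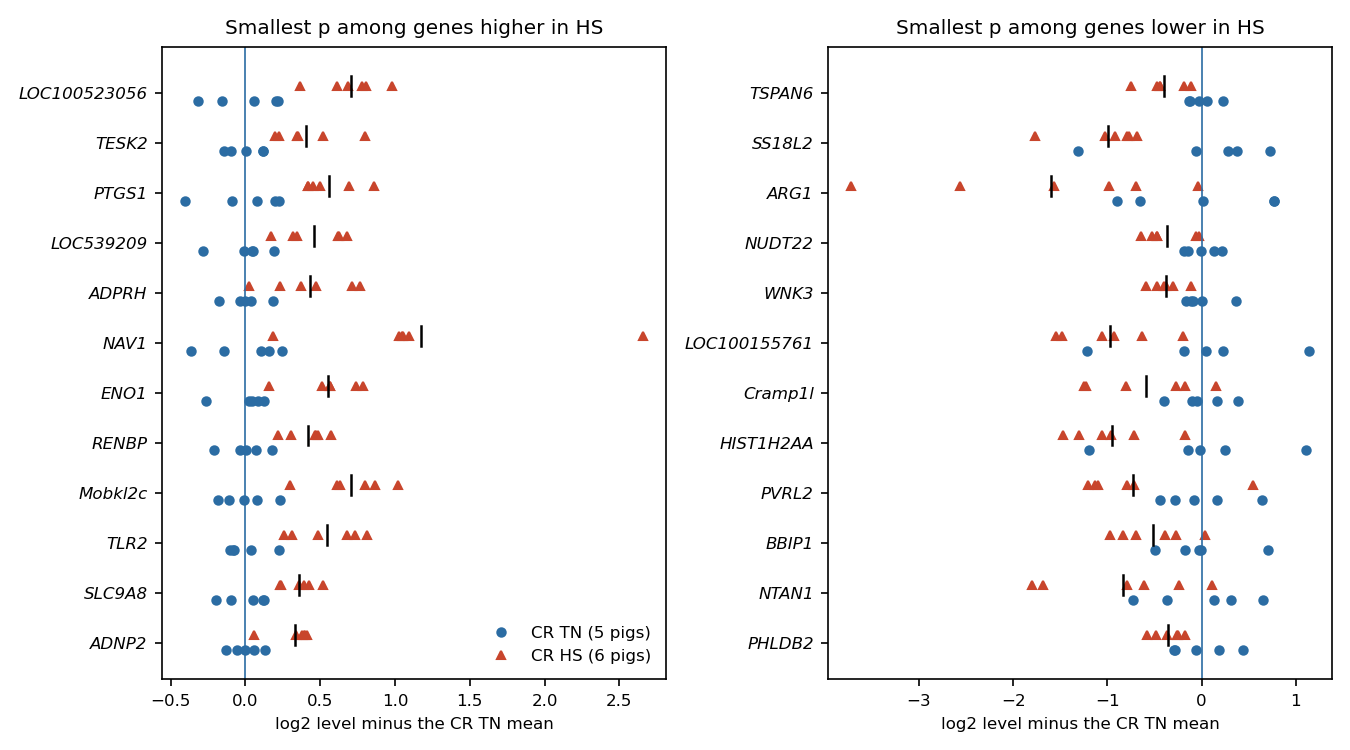
Log2 values of CR pigs minus the mean of the TN pigs for the 12 genes with the smallest p in each direction, with TN pigs (n = 5) as circles and HS pigs (n = 6) as triangles. The blue line is the TN mean and the black tick the HS mean. In ENO1 and TLR2 all HS pigs lie to the right of all TN pigs, while in ARG1 the groups overlap, and the axes of the 2 panels differ.

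Among the 12 genes with the smallest p in each direction, the lower ones tended to have larger differences but also wider spread. ARG1, the arginase that splits arginine into ornithine and urea and is found in neutrophil granules and in red cells in some species, was measured at 12.17, 13.84, 13.07, 13.83 and 12.41 in TN pigs and at 9.35 to 13.03 in HS pigs (median 11.79). The groups overlapped, and the HS pigs alone spanned more than the whole TN range. The difference was −1.59 ± 0.51, or 3.02-fold lower (limma, adjusted p = 0.488), with all 5 probes in this direction, and −1.17 without HS pig 3. SS18L2, a small nuclear protein related to SS18, had TN values of 10.13, 12.16, 11.72, 11.81 and 11.38 and HS values of 9.67 to 10.75 (median 10.58). Here TN pig 1 lay among the HS pigs, and the difference was −0.996 ± 0.302, or 1.99-fold lower (limma, adjusted p = 0.488). TSPAN6, a tetraspanin of the cell membrane, had the smallest p among lower genes, with TN values of 8.35, 8.18, 7.98, 8.00 and 8.10 and HS values of 7.37 to 8.01 (median 7.68). It was lower (−0.40 ± 0.11) and overlapped slightly (limma, adjusted p = 0.488).

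NTAN1, which deamidates asparagine at protein N-termini and so marks proteins for degradation, was lower in HS pigs (−0.83 ± 0.28.) PVRL2, the adhesion molecule nectin-2, was lower (−0.73 ± 0.25), although HS pig 1 (8.26) was above 4 of the 5 TN pigs. Cramp1l (−0.60 ± 0.20), BBIP1, a component of the complex that carries proteins to cilia (−0.52 ± 0.17), NUDT22 (−0.37 ± 0.12), WNK3 (−0.38 ± 0.12) and PHLDB2 (−0.35 ± 0.12) completed this group. WNK3 and PHLDB2 were above background in only 4 of the 6 HS pigs. HIST1H2AA (−0.95 ± 0.32), a histone H2A gene, and LOC100155761 (−0.97 ± 0.32) are read by probes that share at least 30 bases, so they are not separate measurements. All of these had an adjusted p of 0.488 with limma and overlapping groups.

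Among genes without overlap that were lower in HS pigs, CCNB1IP1, a ubiquitin ligase that acts on cyclin B, had the largest difference. Its TN values were 9.88, 10.14, 9.58, 9.48 and 9.83 and its HS values 8.89 to 9.43 (median 9.23), with a difference of −0.60 ± 0.23 (limma, adjusted p = 0.488). PPP2R3C, a regulatory subunit of protein phosphatase 2A, was lower (−0.34 ± 0.26), as were BEND3 (−0.23 ± 0.09), API5, an inhibitor of apoptosis (−0.23 ± 0.13), and NPY2R, a receptor of neuropeptide Y (−0.22 ± 0.10). PPP2R3C and API5 did not reach an unadjusted p of 0.05 (limma, adjusted p = 0.617 and 0.513), since the spread is estimated over all 35 pigs. BEND3 was above background in 4 of the 6 HS pigs and NPY2R in 4 TN pigs and 1 HS pig, so their lower values lie near the background. SELENOK, a selenoprotein of the ER, was lower without overlap too (−0.46 ± 0.18), with 6 of its 7 probes in this direction, and was therefore not among the genes named by rule.

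A mean difference of 2-fold or more was seen in 29 genes (0.263%), with SOX6 counted under 2 spellings. Of the 29, 6 were higher and 23 lower in HS pigs, and the groups overlapped in all 29. Of these, 23 had an unadjusted p under 0.05. Besides ARG1, the lower ones held genes of the red cell lineage, among them RHCE of the Rh blood group (−1.31 ± 0.61) and CA1, a carbonic anhydrase (−1.22 ± 0.61). The erythroid list had 4 members among the 23. SOX6, a regulator of globin genes, was lower (−1.18 ± 0.56) and is counted again under the spelling SOX-6 (−1.01 ± 0.47). RIOK3 was lower too (−1.14 ± 0.40). The higher ones included NOP14, a factor of small ribosomal subunit assembly (1.02 ± 0.30), and LGALS7, a galectin of epithelia (1.13 ± 0.51). NOP14 had TN values of 9.21, 8.90, 10.39, 10.20 and 10.32 and HS values of 9.94 to 11.53 (median 10.74). TN pigs 1 and 2 were apart from the other TN pigs in this gene. SOX6, RIOK3 and LGALS7 were singled out by the size of their difference after it had been seen.

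Among gene lists, the lysosomal list had the largest share of genes higher in HS pigs at an unadjusted p under 0.05. The study itself reports lysosome and glycolysis as enriched in blood, from data that include these pigs. Lists were chosen with earlier results known, so the shares below describe these data and are not separate support. Of 63 listed genes 53 were measured, and 44 had a higher mean in HS pigs (83%, against 56.2% of all genes). At an unadjusted p under 0.05, 16 (30.2%) were higher, against 6.18% of all genes, and 1 was lower, against 3.95% of all genes. Of the list, 0 genes passed the adjusted threshold. The median difference of the list was 0.16, against 0.03 over all genes, and ran from 0.15 to 0.20 when each pig was left out. On the 4 slides with both groups it was 0.26, 0.22, 0.21 and 0.12. The mean level of the list in each pig, in log2 units around the mean of each gene, was 0.01, −0.18, −0.16, −0.07 and −0.08 in TN pigs 1 to 5 and between −0.04 and 0.22 in HS pigs. TN pig 1 overlapped with HS pig 4, and 6 of 6 HS pigs were above the TN mean. CTSB, a lysosomal protease, was higher by 0.39 ± 0.11 (6 of its 7 probes in this direction), LAMP1, the main glycoprotein of the lysosomal membrane, by 0.47 ± 0.14, HEXA, a subunit of the enzyme that degrades gangliosides, by 0.43 ± 0.16, and the membrane receptor SCARB2 by 0.36 ± 0.12. In CTSZ, CTSB, LAMP1 and HEXA, as in ATP6V1B2 of the proton pump (0.15 ± 0.07, with its 2 probes of opposite sign), the HS and TN pigs did not overlap. These were 5 of the 53 measured genes, whereas 0.408% of all genes were higher without overlap.

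Monocytes are rich in lysosomes, so their markers are given here. Of 18 marker genes, 13 had a higher mean in HS pigs (72.2%, against 56.2% of all genes), with a median difference of 0.16. At an unadjusted p under 0.05, 2 were higher (11.1%, against 6.18% of all genes), CSF1R among them, and 0 lower. The mean level of this list ran from −0.47 to 0.19 in TN pigs and from −0.23 to 0.62 in HS pigs, with HS pig 1 the highest. Without HS pig 1 the median was 0.05. The part of monocyte number in the lysosomal values was not tested.

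Glycolytic genes are described here as well, and the same limit on the choice of lists applies to them. Of 29 listed genes 23 were measured, 19 had a higher mean in HS pigs (82.6%, against 56.2% of all genes), 4 were higher at an unadjusted p under 0.05 (17.4%, against 6.18%) and 0 lower. The median difference was 0.19, ran from 0.15 to 0.24 when each pig was left out, and was 0.17, 0.38, 0.23 and 0.22 on the 4 slides. The level of the list was −0.06, −0.15, −0.18, 0.01 and −0.11 in TN pigs and −0.01 to 0.19 in HS pigs. TN pig 4 overlapped with HS pig 4, and 6 of 6 HS pigs were above the TN mean. ENO1, described above, GPI, which interconverts glucose and fructose phosphates (0.27 ± 0.09, all 5 probes in this direction), and PKM2, the pyruvate kinase of the last step (0.41 ± 0.15, all 5 probes), did not overlap between groups, as was the case for 0.408% of all genes. PGAM1, a mutase of the lower pathway, was higher by 0.33 ± 0.14 with overlap.

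In the citric acid cycle, 21 of 25 genes had a higher mean in HS pigs (84%, against 56.2% of all genes), with a median of 0.15. At an unadjusted p under 0.05, 5 were higher (20%, against 6.18% of all genes) and 0 lower. IDH2 was higher by 0.25 ± 0.09, citrate synthase (CS) by 0.35 ± 0.15, IDH3G by 0.30 ± 0.13 and DLST by 0.35 ± 0.17, all with overlapping groups. In the respiratory chain, 31 of 68 genes had a higher mean (45.6%, against 56.2% of all genes), with a median of −0.01. There 6 genes (8.82%, near the 6.18% of all genes) were higher at an unadjusted p under 0.05 and 0 lower. These included the complex I subunits NDUFS6 (0.40 ± 0.15) and NDUFV1 (0.40 ± 0.17).

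**Figure D3:**
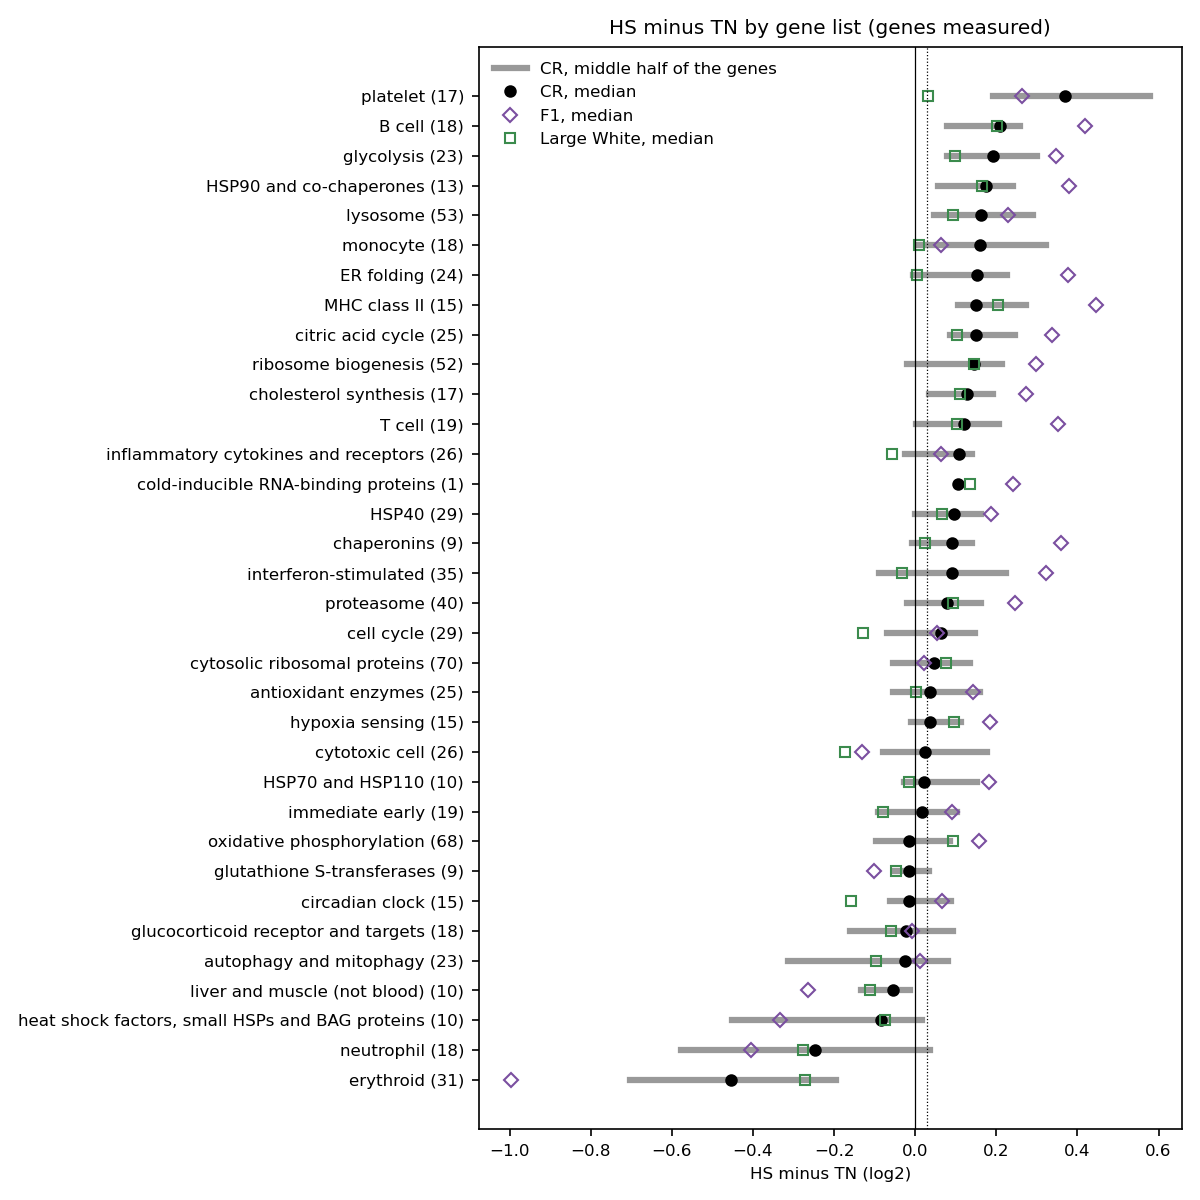
Difference between HS and TN pigs in each gene list, with the number of genes measured in parentheses. Black points are medians in CR pigs with the range between the quartiles of the genes, open symbols are the medians in F1 and LW pigs, and the dotted line is the median over all genes in CR pigs (0.03).

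Chaperones showed no common shift. In the HSP70 and HSP110 list, 6 of 10 measured genes (16 listed) had a higher mean in HS pigs (60%, against 56.2% of all genes). At an unadjusted p under 0.05, 1 was higher (10%, against 6.18% of all genes), and the median was 0.02. HSPA8, the constitutive cytosolic HSP70, had TN values of 11.33, 10.68, 11.25, 11.31 and 11.40 and HS values of 10.71 to 11.57 (median 11.19). TN pig 2 was below all other CR pigs and the groups otherwise overlapped, and the difference of 0.01 ± 0.22 turned to −0.12 without TN pig 2 and to −0.11 with slide as a block. HSPA5, the HSP70 of the endoplasmic reticulum (ER), differed by 0.12 ± 0.09, HSPH1 by −0.04 ± 0.16 and HYOU1, the ER member of the HSP110 family, by 0.27 ± 0.12 (limma, adjusted p = 0.488). HYOU1 thus supplied the 1 member under an unadjusted p of 0.05.

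For HSP90 and its co-chaperones, 12 of 13 measured genes had a higher mean in HS pigs (92.3%, against 56.2% of all genes), 2 at an unadjusted p under 0.05 (15.4%, against 6.18%), with a median of 0.17. The median ran from 0.11 to 0.26 when each pig was left out. It was −0.18 on the first slide and 0.22, 0.37 and 0.18 on the others. The level of the list was −0.09, −0.21, 0.02, −0.15 and 0.01 in TN pigs, and in HS pigs it ran from −0.36 in HS pig 1 to 0.29. Of the HS pigs, 5 of 6 were above the TN mean, and HS pig 1 was below all TN pigs. CDC37, which delivers kinases to HSP90, was higher by 0.30 ± 0.10, and STUB1, a ubiquitin ligase that works with chaperones, by 0.28 ± 0.13. HSP90AA1 had TN values of 11.18, 10.81, 11.26, 11.25 and 11.15 and HS values of 10.81 to 11.66 (median 11.50). HSP90AA1 differed by 0.24 ± 0.12 and HSP90AB1 by 0.21 ± 0.12 (limma, adjusted p = 0.494 and 0.515), and neither reached an unadjusted p of 0.05.

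HSP40 genes had a median of 0.09 (0.05 to 0.13 when each pig was left out) with 21 of 29 means higher (72.4%, against 56.2% of all genes). At an unadjusted p under 0.05, 1 gene was higher (DNAJC1, 0.28 ± 0.11) and 1 lower (DNAJC12, −0.43 ± 0.17). The share higher was 3.45%, against 6.18% of all genes, and 3.95% of all genes were lower. DNAJB1, the HSP40 partner of inducible HSP70, differed by 0.06 ± 0.12. Chaperonins had a median of 0.09 over 9 genes, which was −0.02 without TN pig 2 and 0.22 without HS pig 1, with 0 at an unadjusted p under 0.05, 0.14 ± 0.18 for HSPD1 and −0.09 ± 0.14 for HSPE1. The list of heat shock factors, small heat shock proteins and BAG proteins held members on both sides. In it 4 of 10 means were higher (40%, against 56.2% of all genes), with a median of −0.08 (−0.15 without TN pig 1, −0.02 without TN pig 2). At an unadjusted p under 0.05, 1 of the 10 was higher (10%, against 6.18% of all genes) and 3 were lower (against 3.95% of all genes). HSPB1, the small heat shock protein HSP27, had TN values of 10.53, 10.73, 11.12, 10.56 and 10.56 and HS values of 10.97 to 11.34 (median 11.03), and only TN pig 3 reached the HS range. HSPB1 was higher by 0.41 ± 0.18, whereas CRYAB was lower (−0.68 ± 0.31), as were HSPB8 (−0.64 ± 0.29) and BAG4, which binds HSP70 (−0.56 ± 0.26), all 4 with an unadjusted p under 0.05 and a limma adjusted p of 0.488. HSF1 differed by −0.13 ± 0.14.

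In the ER folding list 18 of 24 means were higher (75%, against 56.2% of all genes), with a median of 0.15. At an unadjusted p under 0.05, 2 genes were higher (8.33%, against 6.18% of all genes) and 1 lower (against 3.95% of all genes). The lower one was ERN1, the IRE1 sensor of unfolded proteins, with TN values of 9.97, 11.36, 10.44, 10.77 and 10.39 and HS values of 8.87 to 10.77 (median 9.29). The ERN1 groups overlapped, and the difference was −1.02 ± 0.35 (limma, adjusted p = 0.488). PDIA3, a disulfide isomerase, was higher by 0.30 ± 0.15. CIRBP, an RNA-binding protein induced by cold, differed by 0.11 ± 0.09.

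Antioxidant enzymes were also divided. Of 25 genes, 15 had a higher mean (60.0%, against 56.2% of all genes), 4 were higher at an unadjusted p under 0.05 (16.0%, against 6.18%) and 0 lower. Their median was 0.04, and it was −0.01 without HS pig 6 and 0.13 without TN pig 4. GSS, of glutathione synthesis, was higher by 0.26 ± 0.10, TXNRD1, thioredoxin reductase, by 0.23 ± 0.09, PRDX1 by 0.32 ± 0.14 (0.17 without TN pig 2) and KEAP1, the sensor that holds back NRF2, by 0.16 ± 0.08, with its 2 probes of opposite sign. PRDX2, the abundant peroxiredoxin of red cells, was on the other side, with TN values of 15.85, 16.68, 16.23, 16.43 and 15.81, HS values of 14.69 to 16.42 (median 15.96) and a difference of −0.55 ± 0.29 (limma, adjusted p = 0.495). Among 9 glutathione S-transferases the median was −0.01, with GSTP1 higher by 0.37 ± 0.16 and MGST2 lower (−0.40 ± 0.19.)

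Erythroid genes were the list with the lowest median, −0.46. Of 47 listed genes 31 were measured, and 5 had a higher mean in HS pigs (16.1%, against 56.2% of all genes). At an unadjusted p under 0.05, 2 were lower (RHCE among them) and 0 higher, against 3.95% lower among all genes. RHCE had TN values of 10.03, 11.32, 11.33, 11.30 and 10.82 and HS values of 7.76 to 11.16 (median 9.81). HS pigs 1, 3 and 5 were below all TN pigs in RHCE, and the others lay within the TN range. ALAS2, the first enzyme of haem synthesis in red cells, differed by −0.52 ± 0.31, and HBB, the β-globin, by −0.04 ± 0.16. In bulk blood, fewer immature red cells and less RNA per cell cannot be told apart.

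The erythroid difference was unevenly spread over pigs. The level of the list was −0.45, 0.60, 0.45, 0.76 and −0.07 in TN pigs 1 to 5 and 0.06, 0.18, −0.91, 0.67, −0.96 and −0.34 in HS pigs 1 to 6. TN pig 1 was below 4 of the 6 HS pigs, and HS pig 4 was above 4 of the 5 TN pigs. The median of the list was 0.07, −0.27, −1.59 and −0.06 on the 4 slides, and it ran from −0.73 without TN pig 1 to −0.33 without HS pig 5. The globin probes took 0.878% ± 0.222 (SD, n = 6) of the raw signal in HS pigs and 0.922% ± 0.176 (n = 5) in TN pigs (exact permutation test, two-sided, p = 0.727, adjusted p = 0.909).

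**Figure D4:**
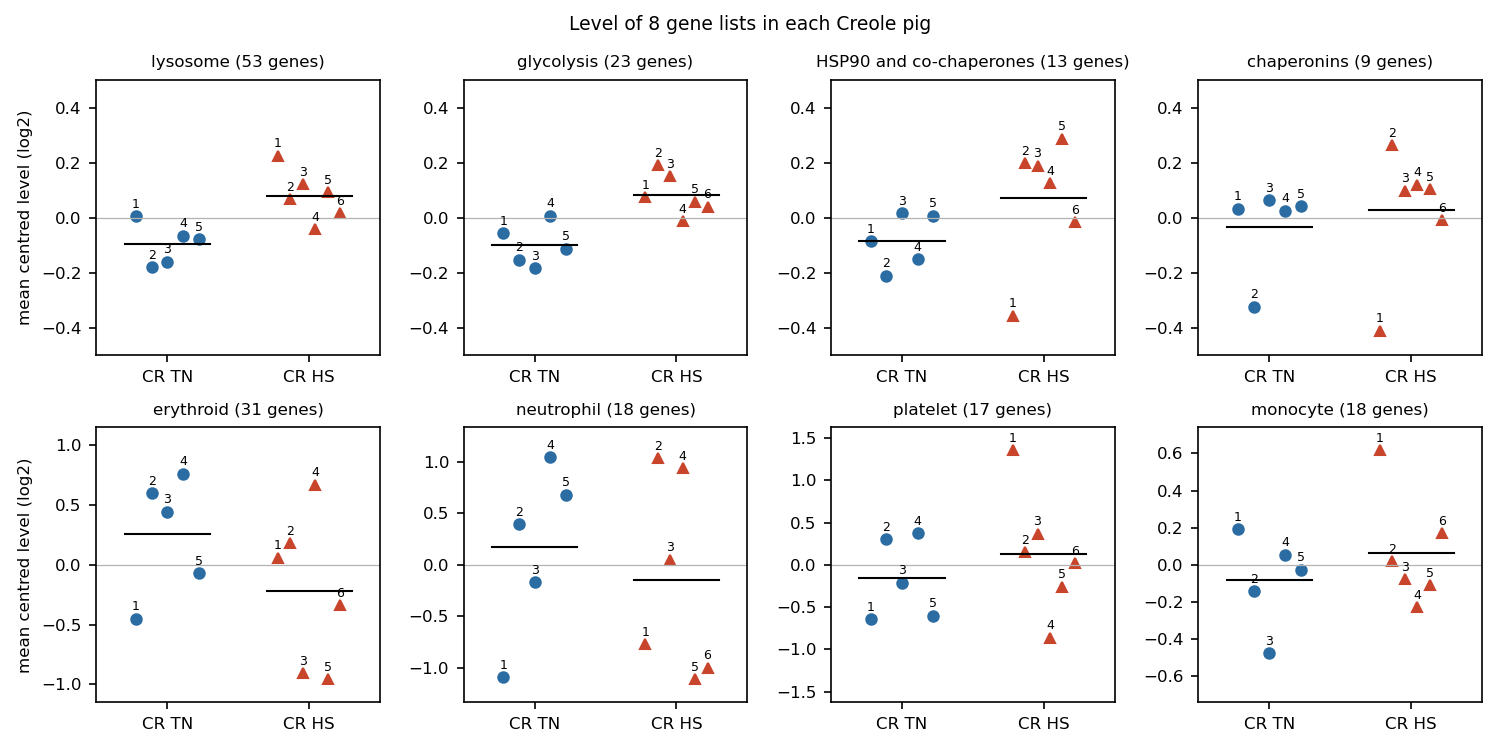
Level of gene lists in each CR pig, as the mean over the genes of a list of the log2 value minus the mean of that gene over the 11 pigs. Numbers are the pigs, lines are group means and the axes differ between panels. Lysosome and glycolysis genes sit higher in HS pigs with little spread, whereas erythroid, platelet and neutrophil genes spread over more than 1 log2 unit within each group.

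Markers of other blood cells varied more between pigs than between temperatures. Platelet genes had a higher mean in 14 of 17 cases (82.4%, against 56.2% of all genes) and a median of 0.37. At an unadjusted p under 0.05, 1 gene was higher (TBXAS1, thromboxane synthase, 0.53 ± 0.22) and 1 lower (PDGFA, −0.58 ± 0.25). The share higher was 5.88%, against 6.18% of all genes, and 3.95% of all genes were lower. The level of the platelet list was −0.64, 0.30, −0.21, 0.38 and −0.60 in TN pigs and ran from −0.86 to 1.36 in HS pigs. HS pig 1 held the highest value, and without it the median was 0.06. F13A1, the coagulation factor XIII subunit of platelets and monocytes, had TN values of 8.25, 9.10, 8.79, 9.03 and 7.90 and HS values of 7.83 to 11.23 (median 9.31), and differed by 0.75 ± 0.51, or 0.37 without HS pig 1.

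Neutrophil genes had a higher mean in 6 of 18 cases (33.3%, against 56.2% of all genes) and a median of −0.25. At an unadjusted p under 0.05, 1 of the 18, ARG1, was lower (against 3.95% of all genes) and 0 were higher. ARG1 parted from the list in some pigs. HS pig 1 had the highest ARG1 of the HS pigs (13.03) at a list level of −0.77. HS pig 3 had the lowest (9.35) at 0.05, with an erythroid level of −0.91. HS pig 5 was low in ARG1 (10.50) and in both lists. The cell source of ARG1 was not tested. The level of the list was −1.10, 0.40, −0.17, 1.05 and 0.68 in TN pigs and ran from −1.12 to 1.04 in HS pigs. TN pig 1 and HS pigs 1, 5 and 6 were low, and the others were near or above the average. Its median was −0.32, 1.41, −1.35 and −0.57 on the 4 slides and ran from −0.73 without TN pig 1 to 0.02 without TN pig 4.

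B cell genes had a higher mean in 16 of 18 cases (88.9%, against 56.2% of all genes) and a median of 0.21. At an unadjusted p under 0.05, 2 were higher (11.1%, against 6.18% of all genes). These were CD180, a toll-like receptor homologue of B cells (0.41 ± 0.17), and BLNK, an adaptor of the B cell receptor (0.31 ± 0.15). The median was 0.07 without TN pig 4 and 0.35 without TN pig 5. For major histocompatibility complex class II, 12 of 15 means were higher (80%, against 56.2% of all genes). The median was 0.15 (0.09 without HS pig 5, 0.24 without HS pig 4), and SLA-DMB was higher by 0.42 ± 0.15 (limma, adjusted p = 0.488). TN pig 5, the TN pig with the highest B cell level (0.25), was also the highest TN pig for class II (0.16).

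Of the 20 genes that varied most between CR pigs, 7 belonged to the neutrophil list, and heat differences in the 20 were small against this variation. They were picked by their SD after the values had been seen. PMAP-36, a cathelicidin, was measured at 5.91, 12.85, 11.88, 13.90 and 5.51 in TN pigs and at 6.67, 14.61, 11.62, 12.51, 5.29 and 5.41 in HS pigs 1 to 6. Pigs were thus either near background or among the strongest signals, in each group alike. The SD between pigs of a group was 4.03, and the difference was −0.66 ± 1.80 (limma, adjusted p = 0.915). PR39 (SD 3.18), PMAP-23 (3.14) and NPG4 (3.13), further cathelicidins, AZU1 (2.55), LTF, lactoferrin (2.29), S100A8 (2.09), and MPO, myeloperoxidase (2.02), were among the next. In 15 of the 20 most variable genes the same 4 pigs, TN pig 1 and HS pigs 1, 5 and 6, had the 4 lowest values. Sharing of signal between cathelicidin probes was not tested, and in TN pig 5 PMAP-36 was at 5.51 while PR39 was at 14.67. The gene differences ranged from −1.34 ± 0.88 in RNASE10 to 0.43 ± 0.81 in TOR3A among these 20.

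**Figure D5:**
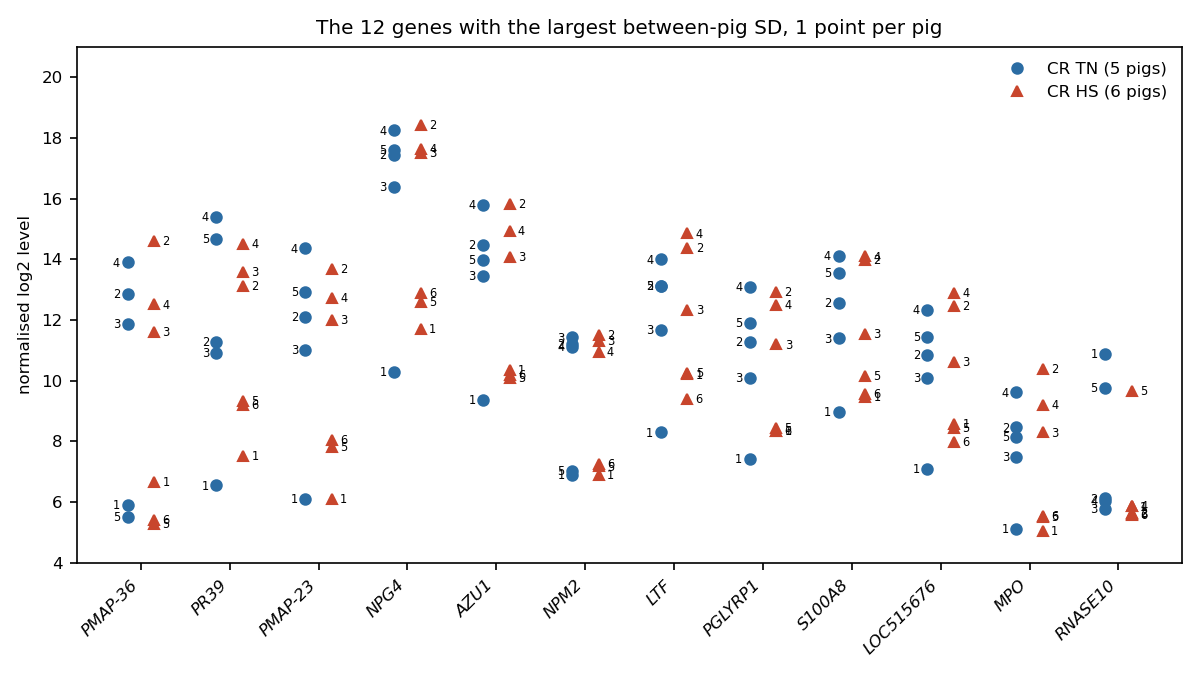
Log2 values, in each CR pig, of genes with the largest SD between pigs of the same group. TN pig 1 and HS pigs 1, 5 and 6 are low in most genes shown, so the values separate pigs within each group rather than HS from TN.

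Probes without a gene name were named by sequence. The probe with the smallest p of all that were higher in HS pigs, described in the files as similar to centaurin-alpha 2, had TN values of 6.03, 5.56, 5.80, 5.89 and 5.65 and HS values of 6.03 to 6.76. The groups met at 6.03, and the difference was 0.59 ± 0.13 (limma, adjusted p = 0.557). The probe with the smallest p on the lower side differed by −0.51 ± 0.14 (limma, adjusted p = 0.557). They are shown because no symbol identifies them.
higher in HS: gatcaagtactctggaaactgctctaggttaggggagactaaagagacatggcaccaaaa
lower in HS: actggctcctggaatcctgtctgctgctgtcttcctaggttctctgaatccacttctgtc

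The heat effect in CR pigs was compared with the mean of those in F1 and LW pigs. No gene passed for this difference with limma (0 genes, 0%, smallest adjusted p 0.9996), and 283 genes (2.57%) had an unadjusted p under 0.05, 125 with the CR effect above and 158 below. Of the probes, 0 (0%) passed and 1088 (2.78%) had an unadjusted p under 0.05. The number was 153 to 552 when each CR pig was left out, lowest without HS pig 4 and highest without HS pig 5, and 474, 185 and 182 without HS pig 3, HS pig 1 and TN pig 1. The median SE of this difference was 0.18 log2 units. Within F1 pigs, 4816 genes passed an adjusted p of 0.05, with a median absolute difference of 0.29, and within LW pigs 0 genes passed and 976 had an unadjusted p under 0.05. F1 TN arrays were dimmer, with a 75th percentile of intensity of 149.9 ± 28.3 (SD, n = 6) against 238 ± 35.6 in F1 HS pigs, whereas CR TN and CR HS arrays were at 228 ± 66.5 (n = 5) and 225 ± 54.6 (n = 6). The part of array brightness in the F1 count was not tested. The erythroid median was −0.997 in F1 and −0.27 in LW pigs, on either side of the value in CR pigs.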

How the data were processed

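Blood RNA of 35 pigs was measured on 1-colour (Cy3) custom Agilent arrays, and the 11 CR arrays carried the comparison. Per the file headers, arrays were read with Agilent Feature Extraction 10.10.1.1, and the deposited scanner files hold raw and background-subtracted spot intensity, not normalized between arrays. The authors deposited log2 values that come from the quantile-normalized median intensity after a filter on expressed probes whose rule is not stated. These log2 values were used here without change (39072 probes). A recomputation from the raw intensity had a Pearson correlation of 0.99997 with them.

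Probes were named by the files' symbol (16711), an older symbol (485), an accession (1013) or a gene ID (1968) found in a table of pig genes; 1575 kept the files' name and 17320 had none. Values of probes of a gene were averaged (11023 genes). Each was fitted in R 4.3.3 with limma 3.58.1 (lmFit, eBayes, two-sided) as 6 group means over 35 arrays, so that all groups share the estimate of the spread. P-values were adjusted by Benjamini-Hochberg, threshold 0.05. Above background means well above background according to the scanner software. Scripts were tested on simulated data.

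Pigs were numbered in the order of the records, and the numbers pair no animals. Named genes were, in each direction and among genes whose probes all had the same sign, the 12 with the smallest p and the 5 with the largest difference without overlap, the 2 unnamed probes with the smallest p (1 of those on the lower side is not shown), up to 4 genes per list (34 lists) and a set of chaperone, red cell and other genes; a few are not reported here. Genes and lists were chosen with earlier results of these data known. List members were counted, not tested. Alternatives were other normalizations, filters, slide as a block, array weights, CR arrays alone and leaving out each CR array. Arrays have no counting depth. Precision is set by how many arrays there are.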

Additional observations from a re-analysis of the deposited data

Results flagged for a closer look

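A pig stood apart from the others of its group, with a gap to the nearest pig that was large against the range of the group, in 19 of 316 groups of values examined (6.01%). Chance alone marks about 1 in 20 groups. TN pig 2 was lowest among TN pigs for the chaperone genes HSPA8 (10.68), HSP90AA1 (10.81) and HSPE1 (10.71), for PRDX1 (10.73), for the level of the chaperonin list (−0.32) and for the share of probes well above background (59.8%). TN pig 1 was highest among TN pigs for DUSP1 (10.37) and SGK1 (10.92), which glucocorticoids induce, and for the level of the circadian clock list (0.25), and lowest for ENO1 (12.20) and NPG4 (10.29). HS pig 1 was highest among HS pigs for NAV1 (10.36) and PVRL2 (8.26) and lowest for ADNP2 (5.32). HS pig 5 was highest for RNASE10 (9.67). HS pig 3 was lowest for SS18L2 (9.67) and PPP2R3C (6.38). TN pig 3 was highest among TN pigs for the level of the ER folding list (0.12) and TN pig 5 for that of the class II list (0.16).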

How the results depend on the processing

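No gene passed the adjusted threshold in CR pigs under any alternative except array weights (416 genes). The counts of genes higher and lower at an unadjusted p under 0.05 were 1691 and 1381 with array weights, 488 and 212 with slide as a block and 457 and 180 with CR arrays only. They ran from 372 to 1413 and from 73 to 1060 when each CR pig was left out, and the count for CR against the other breeds from 153 to 552. Among list medians, HSP70 and HSP110 ran from −0.0125 to 0.0787 over the same fits, hypoxia sensing was 0.11 within slides, and liver and muscle was −0.34 with 75th percentile scaling. Near 0, HSPA8 turned to −0.111 with slide as a block and to −0.0612, −0.0499 and −0.117 without HS pig 2, HS pig 6 and TN pig 2. HSPH1 turned to 0.0321, 0.0017 and 0.0208 without HS pig 1, TN pig 1 and TN pig 5, and its lowest value was −0.133. HBB turned to 0.0362 with slide as a block and to 0.0001, 0.0965 and 0.0462 without HS pig 3, HS pig 5 and TN pig 2, and its lowest value was −0.127. The widely spread granule genes turned too: LTF to 0.0618 and PMAP-36 to 0.1551 with slide as a block, and PMAP-36 to 0.6706 with array weights. When each pig was left out, LTF ran from −1.0754 to 0.3625, PR39 from −1.8577 to 0.3553, PMAP-36 from −1.7832 to 0.3153 and MPO from −1.1053 to 0.0216, each lowest without TN pig 1 except PMAP-36 (TN pig 5) and each highest without TN pig 4 except LTF (HS pig 6). The cause was not tested. Of the values of named genes, 2112 kept their direction and side of the threshold and 40 passed it, all with array weights. No paired analysis was possible because the labels carry no numbers shared between groups. Signal near background limits WNK3, PHLDB2, BEND3 and NPY2R among the lower genes and PTGS1, SLC9A8 and ADNP2 among the higher ones.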

Other observations

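Ribosome biogenesis genes had a higher mean in HS pigs in 37 of 52 cases (71.2%, against 56.2% of all genes), with a median of 0.14 (0.09 without HS pig 5). At an unadjusted p under 0.05, 0 were lower and 5 higher (9.62%, against 6.18% of all genes), among them NOP14, NOC2L (0.48 ± 0.17) and BYSL (0.19 ± 0.09). The 70 cytosolic ribosomal proteins had a median of 0.05 (−0.01 without HS pig 5), and RPL8 was higher by 0.32 ± 0.11. Proteasome genes had a median of 0.08 over 40 genes (0.03 without TN pig 2), with PSMB3, a subunit of the catalytic ring, higher by 0.49 ± 0.17. In cholesterol synthesis and transport, 14 of 17 means were higher (82.4%, against 56.2% of all genes) with a median of 0.13, or 0.04 without TN pig 5. ABCA1, which exports cholesterol from macrophages and other cells, had TN values of 7.79, 8.22, 8.13, 8.30 and 8.80 and HS values of 8.14 to 9.70 (median 9.34), a difference of 0.80 ± 0.24 (limma, adjusted p = 0.488). HS pigs 3, 4, 5 and 6 were above all TN pigs and the others overlapped with them.

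T cell genes had a median of 0.12 (14 of 19 means higher, 73.7%), cytotoxic cell genes 0.02 (14 of 26, 53.8%) and interferon-stimulated genes 0.09 (23 of 35, 65.7%). Of all genes, 56.2% had a higher mean. In these lists 0 genes had an unadjusted p under 0.05. The medians rested on few pigs, with 0.03 for T cell genes without HS pig 3, −0.04 for cytotoxic cell genes without HS pig 5 and −0.04 for interferon-stimulated genes without TN pig 4. Inflammatory cytokines and receptors had a median of 0.11 over 26 genes (0.04 without HS pig 6), with IRAK1 lower (−0.44 ± 0.21). The lists of cell cycle (0.06), immediate early genes (0.02), hypoxia sensing (0.04), the circadian clock (−0.01), glucocorticoid receptor targets (−0.02) and autophagy (−0.03) had medians near that of all genes. In autophagy, NBR1 (0.20 ± 0.07) and ATG7 (0.23 ± 0.11) were higher and GABARAP (−0.36 ± 0.16) and ATG9A (−0.60 ± 0.27) lower, all with limma p under 0.05 before adjustment. Of 23 measured genes, 2 were thus higher (8.7%, near the 6.18% of all genes) and 2 lower (against 3.95% of all genes). ATF3, a stress-induced transcription factor, was higher by 0.26 ± 0.11. The 10 genes of liver and muscle, which blood should lack, had a median of −0.05.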
